A study of Mus musculus with 6 samples.

Results

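Transcripts of inhibitory and costimulatory checkpoint receptors were followed in iNKT1 cells of the thymus, an interferon-gamma-producing subset of invariant NKT cells that depends on T-bet (Tbx21). The set was defined by name as Pdcd1, Ctla4, Lag3, Havcr2, Tigit, Cd96, Cd226, Icos and Btla. Of these 9 genes, 8 had a row among the 17985 genes of the expression table, and all 8 passed the filter on low values. Lag3 was not analysed here.

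Checkpoint receptors set the threshold at which a T cell answers its antigen receptor. Inhibitory members such as PD-1 (Pdcd1), CTLA-4 and BTLA carry tyrosine motifs that recruit phosphatases, or compete for shared ligands, whereas ICOS and CD226 add to activation. CD226, TIGIT and CD96 bind overlapping ligands of the nectin family, the poliovirus receptor among them, so that an activating receptor and its inhibitory counterparts read the same surface molecule. TGF-beta is a known regulator of several of these receptors in T and natural killer cells.

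Libraries came from the thymus of C57BL/6 mice. The control group (Ctrl, genotype Tbx21CreTg;Rosa26-LSL-YFP+/+) and the conditional knockout group (cKO, the same with Tgfbr2F/F) both carried the Cre transgene and the fluorescent reporter. Only the cKO mice had the floxed alleles of Tgfbr2, the type II TGF-beta receptor. Cre was driven by Tbx21, so deletion can occur only in cells that have turned that gene on, in any lineage that does so. There were 3 libraries a group. The labels give no age or sex, and do not say whether the replicates were separate mice, so p-values measure the spread between these libraries.

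The libraries held between 28832779 and 68092478 reads, and levels are in CPM, the read count scaled to the library total. Tgfbr2 reads amounted to 449 ± 20.7 CPM in Ctrl, and in cKO to 274 ± 16.1 CPM (SD, n = 3 each), 61.0% of the control level (limma adjusted p 0.0207 with group alone, 0.0299 to 0.155 when 1 library was left out, and 0.00160 with the replicate number). T cell and iNKT1 markers were present in every library, among them Cd3e, Trac, Il2rb and Tbx21, the last at 680 CPM or more. Both replicate 3 libraries stood apart from the other 4. In them 4406 (Ctrl) and 4590 (cKO) genes were listed at 0, against 5 or fewer in each of the others, and they were the deepest libraries. Each result on the receptors is therefore given by replicate number as well.

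Promoter sequences are given first, so that the loci can be seen beside their values; windows of 6 of the 8 receptors were used. They are RefSeq windows on GRCm38.p6, read 5′ to 3′ on the gene's strand, from 250 bases before to 50 bases after the annotated start. Printed are those of Btla, Cd96, Tigit and Pdcd1. Btla and Cd96 passed an adjusted p under 0.05 in limma with the replicate number in the model, and did not with group alone. The groups did not overlap for Btla, Cd96 and Tigit, and overlapped for Pdcd1. Capitals mark matches on either strand to CAGAC (a core of SMAD-binding elements) or TGTGGT (bound by RUNX proteins); AGGTGTG (T-box) and TGACTCA (AP-1) were also searched and gave no match in the 6 windows. None of the matches overlapped.
Btla, chr16:45224087-45224386, plus strand: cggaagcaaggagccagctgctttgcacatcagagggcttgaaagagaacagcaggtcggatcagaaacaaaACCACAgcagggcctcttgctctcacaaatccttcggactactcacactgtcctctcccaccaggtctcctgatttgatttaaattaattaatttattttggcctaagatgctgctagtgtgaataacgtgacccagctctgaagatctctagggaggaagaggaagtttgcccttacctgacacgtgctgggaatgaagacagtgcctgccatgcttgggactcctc
Cd96, chr16:46120199-46120498, minus strand: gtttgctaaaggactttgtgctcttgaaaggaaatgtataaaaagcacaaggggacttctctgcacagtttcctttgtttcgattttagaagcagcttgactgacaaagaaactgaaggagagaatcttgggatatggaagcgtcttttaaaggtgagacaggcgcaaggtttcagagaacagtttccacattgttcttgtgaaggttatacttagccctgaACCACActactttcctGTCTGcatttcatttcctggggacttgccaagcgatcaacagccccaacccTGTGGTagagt
Tigit, chr16:43664135-43664434, minus strand: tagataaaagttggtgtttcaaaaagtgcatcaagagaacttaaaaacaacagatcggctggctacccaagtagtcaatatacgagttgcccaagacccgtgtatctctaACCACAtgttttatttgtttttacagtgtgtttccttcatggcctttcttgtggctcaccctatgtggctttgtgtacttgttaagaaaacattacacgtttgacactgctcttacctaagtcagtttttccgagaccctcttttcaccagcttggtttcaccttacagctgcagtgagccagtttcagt
Pdcd1, chr1:94052504-94052803, minus strand: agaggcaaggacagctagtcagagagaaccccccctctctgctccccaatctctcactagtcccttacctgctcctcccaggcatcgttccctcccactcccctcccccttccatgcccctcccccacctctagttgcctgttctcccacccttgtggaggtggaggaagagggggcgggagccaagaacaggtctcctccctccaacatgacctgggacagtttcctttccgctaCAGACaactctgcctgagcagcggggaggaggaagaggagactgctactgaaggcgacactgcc
CAGAC or its complement was present once in the Cd96 window (bases 239 to 243, where the gene starts at base 251), once in the Pdcd1 window (bases 237 to 241) and once in that of Havcr2, and was not present in those of Btla, Tigit or Ctla4. It occurred in 49.6% of all 32851 promoter windows of this length. TGTGGT or its complement occurred 2 times in the Cd96 window (bases 223 to 228 and 290 to 295) and once each in those of Btla, Tigit and Havcr2, against 16.8% of all windows. AGGTGTG was in 5.84% and TGACTCA in 5.20% of all windows. These matches describe letters only.

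The comparison of cKO with Ctrl asks which receptor transcripts differed between the iNKT1 libraries of these genotypes. In cKO, Btla and Cd226 rose and Cd96 fell in a limma model that holds group and replicate number, at an adjusted p under 0.05. In the model with group alone, none of the 8 passed (limma, Benjamini-Hochberg adjusted), although 3 had an unadjusted p under 0.05, as had 6.02% of all tested genes. EdgeR with group alone called none either, and DESeq2 with group alone called 3. Over all 15691 tested genes, 0.663% passed with group alone (0.204% higher and 0.459% lower in cKO). With the replicate number 2.87% passed, 1.24% higher and 1.64% lower. Among the 4715 tested genes whose mean reached 50 CPM, 4.62% passed with the replicate number, and the 3 called receptors were among the 5 at that level. Separate groups, with no overlap of libraries, were seen for 4 of the 8 receptors, with Btla and Cd226 higher and Cd96 and Tigit lower in cKO, against 11.0% of tested genes (3.89% higher and 7.10% lower). The median log2 difference over the 8 was -0.033, beside -0.038 over all tested genes. The receptors were chosen with earlier results of these data known. Their counts therefore cannot be read as an excess over the shares of all tested genes. In bulk libraries, fewer cells of a type and less RNA per cell cannot be told apart, which applies to each of these differences.

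**Figure D1:**
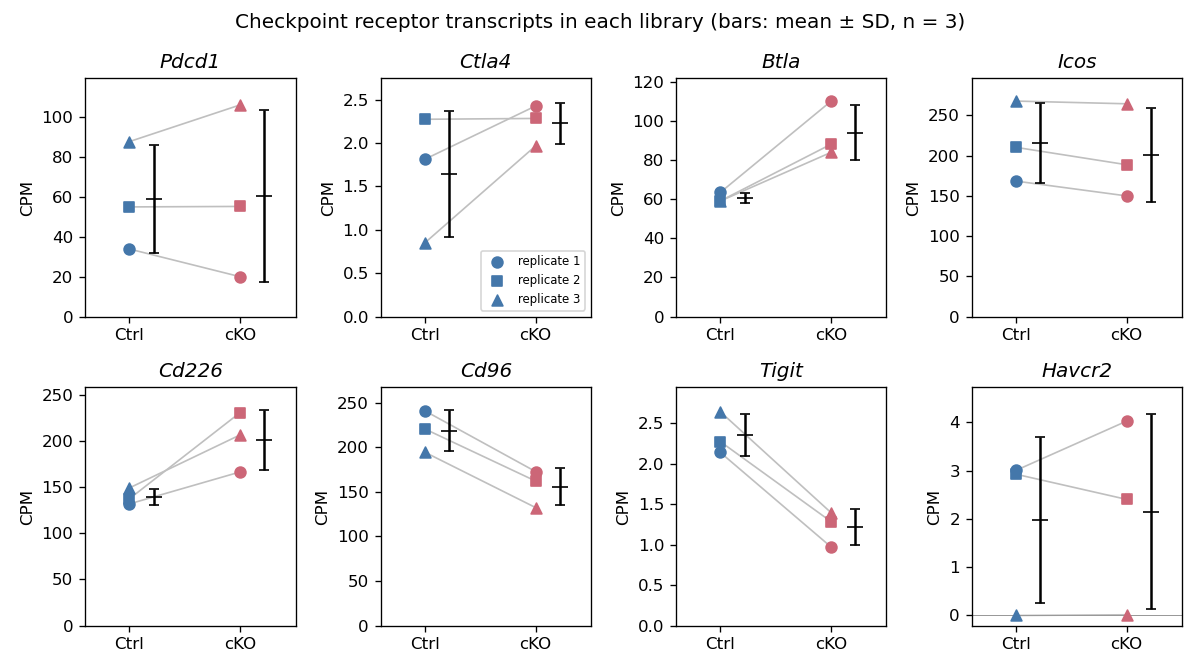
CPM of each receptor (vertical axes, linear) in the 3 Ctrl and 3 cKO libraries; symbols mark the replicate number, grey lines join libraries of the same number, and bars give mean ± SD. The groups are separate for Btla, Cd226, Cd96 and Tigit, while Pdcd1 and Icos follow the replicate number.

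**Figure D2:**
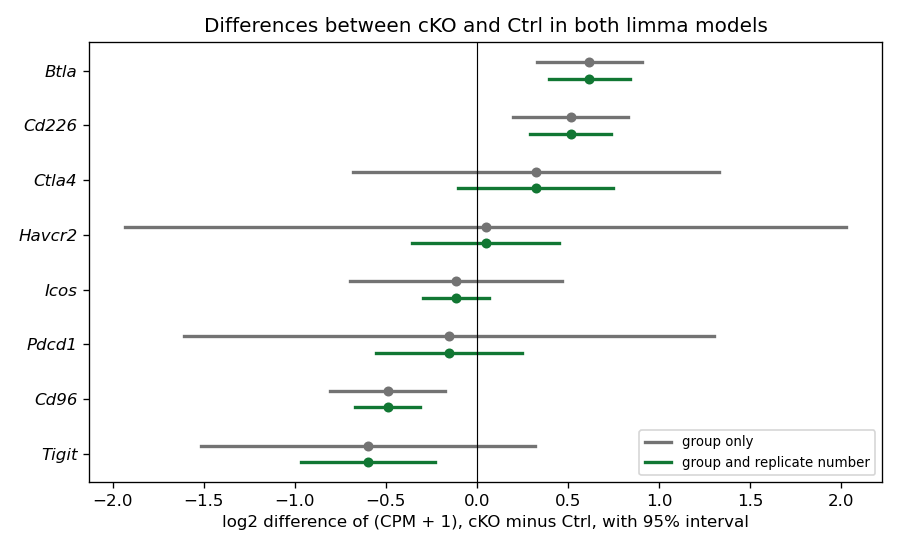
Log2 difference of (CPM + 1) between cKO and Ctrl (horizontal axis) with its 95% interval from limma, with group alone (grey) and with group and replicate number (green). The estimates are the same in both, from -0.60 for Tigit to 0.62 for Btla, and the intervals of Havcr2 and Pdcd1 narrow most once the replicate number is in the model.

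Among the nectin receptors, Cd226 rose and Cd96 fell. Cd226 (chromosome 18, 89197431 to 89270201, plus strand), which encodes the activating receptor DNAM-1, was read in replicates 1, 2 and 3 of Ctrl at 132, 137 and 149 CPM, and in those of cKO at 166, 231 and 206 CPM. Every cKO library lay above every Ctrl library, and the cKO libraries spread more widely. The mean rose from 139 ± 8.83 to 201 ± 32.5 CPM (SD, n = 3 each). On the log2(CPM + 1) scale, on which all differences here are given, the difference was 0.52 (standard error 0.097, limma adjusted p 0.0272) with the replicate number. With group alone the standard error was 0.13 and the limma adjusted p 0.325. By replicate number the differences were 0.33, 0.74 and 0.47. Without replicate 2 in both groups the model with the replicate number gave 0.40 and a limma adjusted p of 0.183, so the call rests on that pair.

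Cd96 (chromosome 16, 46035657 to 46120251, minus strand), whose product binds the poliovirus receptor and has been described with inhibitory and costimulatory roles, was read at 241, 220 and 194 CPM in Ctrl. In cKO it was read at 173, 162 and 132 CPM. All cKO libraries lay below all Ctrl libraries, and in both groups replicate 3 was the lowest. The mean fell from 219 ± 23.3 to 156 ± 20.9 CPM (SD, n = 3 each), to 71.2% of the Ctrl level. The log2 difference was -0.49 (standard error 0.078), and its limma adjusted p was 0.0117 with the replicate number and 0.364 with group alone. Among the 8 receptors it had the narrowest range over replicate numbers, at -0.48, -0.44 and -0.55. Replicates 1 and 2 alone, tested with group as the only term, gave -0.46 and a limma adjusted p of 0.0296. Without replicate 1 in both groups, the model with the replicate number gave -0.50 and a limma adjusted p of 0.0614.

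Tigit (chromosome 16, 43648861 to 43664184, minus strand), which encodes the inhibitory receptor that competes with CD226 for its ligands, was a low transcript. It had 72, 70 and 140 reads in the 3 Ctrl replicates, or 2.14, 2.27 and 2.64 CPM. In cKO it had 28, 54 and 95 reads, or 0.971, 1.28 and 1.40 CPM. The groups did not overlap and the cKO mean was 51.7% of the Ctrl mean (1.22 ± 0.220 against 2.35 ± 0.261 CPM, SD, n = 3 each). The log2 difference of -0.60, which the added 1 CPM shrinks at this level, did not pass with the replicate number (limma adjusted p 0.121) or without it (limma adjusted p 0.99998). Reads carry no molecular identifiers, so read numbers describe counting error only.

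Ratios within a library do not depend on how libraries are scaled, and were formed after the values had been seen. For each read of Cd96 there were 0.547, 0.622 and 0.767 reads of Cd226 in the Ctrl replicates and 0.963, 1.42 and 1.56 in cKO. Thus Cd96 reads outnumbered those of Cd226 in all Ctrl libraries and in cKO replicate 1, and Cd226 reads were the more frequent in cKO replicates 2 and 3. The geometric mean ratio was 2.02-fold higher in cKO, and the log2 difference ran from 0.82 to 1.19 over the replicate numbers. The ratio of Cd226 to Tigit was 59.4 ± 2.71 in Ctrl and 166 ± 16.4 in cKO (SD, n = 3 each), 2.79-fold higher. Since the genes were paired for their opposite differences, these ratios describe the libraries and carry no test.

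**Figure D3:**
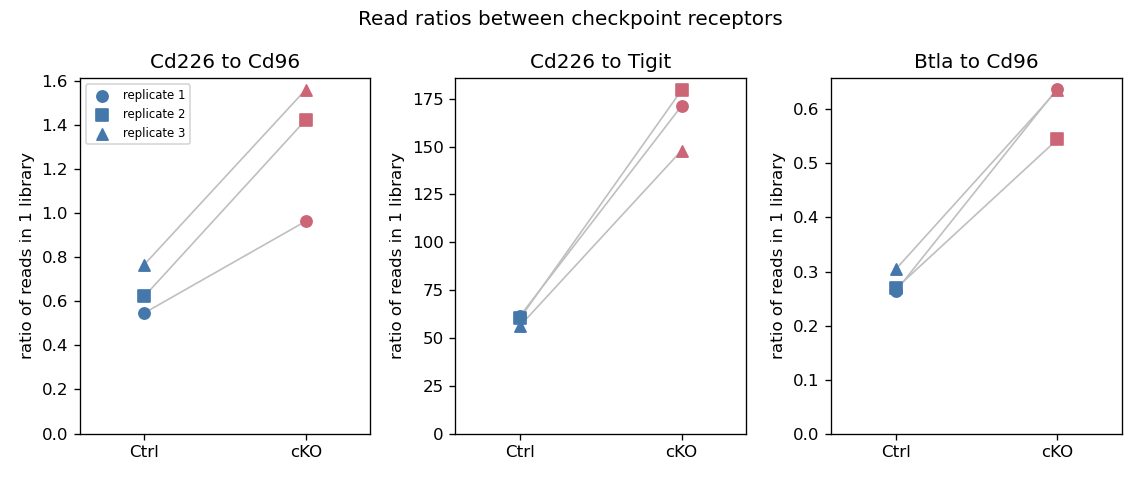
Ratio of reads of 2 receptors within each library (vertical axes, linear from 0) for Cd226 to Cd96, Cd226 to Tigit and Btla to Cd96, by group, with grey lines joining libraries of the same replicate number. In each panel all 3 cKO libraries lie above all 3 Ctrl libraries; for Cd226 to Cd96 they range from 0.963 to 1.56 against 0.547 to 0.767.

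Among the inhibitory receptors of the CD28 family, Btla rose, and Pdcd1 and Ctla4 did not pass the test. Btla (chromosome 16, 45224315 to 45252895, plus strand) encodes an inhibitory receptor for the TNF receptor family protein HVEM. It was read at 63.6, 59.2 and 59.2 CPM in Ctrl and at 110.3, 88.2 and 84.1 CPM in cKO. The Ctrl libraries lay close together and all cKO libraries above them. The mean rose from 60.6 ± 2.53 to 94.2 ± 14.1 CPM (SD, n = 3 each), 1.55-fold. The log2 difference was 0.62 (standard error 0.097), and its limma adjusted p was 0.0114 with the replicate number and 0.132 with group alone. By p-value Btla ranked 248 of 15691 genes in the model with the replicate number. Replicates 1 and 2 alone gave 0.68 and a limma adjusted p of 0.0248, and replicate 3 a difference of 0.50. Without replicate 1 in both groups, the model with the replicate number gave 0.53 and a limma adjusted p of 0.0714. In the authors' deposited table Btla was the only one of the 8 marked as higher, with a log2 fold change of 0.69 and an adjusted p of 0.00935, where 0.801% of all genes had an adjusted p under 0.05 and 0.234% carried that mark. In the authors' deposited table Cd226 had an adjusted p of 0.796 and Cd96 one of 0.99998 (unadjusted 0.0531), and neither was marked.

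The ratio of Btla to Cd96 reads, like those above formed after the values had been seen, was 0.279 ± 0.0222 in Ctrl and 0.606 ± 0.0535 in cKO (SD, n = 3 each). It was 2.17-fold higher in cKO by geometric means.

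Pdcd1 (chromosome 1, 94038305 to 94052553, minus strand), which encodes PD-1, varied more between replicate numbers than between genotypes. Its levels in replicates 1, 2 and 3 were 33.8, 54.9 and 87.6 CPM for Ctrl, and 19.9, 55.1 and 106 CPM for cKO. The highest library held 5.31 times the level of the lowest, and the groups overlapped throughout. The mean of the same-numbered pairs ranged 3.60-fold, whereas the group means were 58.8 ± 27.1 and 60.3 ± 43.2 CPM (SD, n = 3 each), 1.03-fold apart. The log2 difference was -0.15 with a 95% interval from -0.55 to 0.25 with the replicate number (limma adjusted p 0.815), and from -1.61 to 1.30 without it (limma adjusted p 0.99998). The sign was not fixed. On the recovered reads, edgeR and DESeq2 with group alone gave 0.12 and edgeR with the replicate number -0.097, and limma with group alone gave 0.18 without Ctrl replicate 3 and 0.48 without cKO replicate 1. By replicate number the differences were -0.73, 0.0062 and 0.27, so the pairs differed in sign.

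Ctla4 (chromosome 1, 60887000 to 60915832, plus strand), the receptor that competes with CD28 for CD80 and CD86, was a low transcript in these libraries. It had 61, 70 and 45 reads in Ctrl and 70, 96 and 134 in cKO, or 1.81, 2.27 and 0.850 against 2.43, 2.28 and 1.97 CPM. The groups overlapped, and the log2 difference of 0.32, which the added 1 CPM shrinks at this level, did not pass with the replicate number (limma adjusted p 0.564). On the recovered reads, edgeR with the replicate number gave 0.58 and did not pass either (edgeR adjusted p 0.715). The ratio of cKO to Ctrl in CPM was 1.34, 1.004 and 2.32 in replicates 1, 2 and 3. In GENCODE release M21 the gene's span also holds a processed pseudogene on the same strand, Rpl18-ps1, so reads near it are uncertain.

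Icos, the costimulatory member of the CD28 family (chromosome 1, 60977927 to 61000320, plus strand), had 168, 210 and 268 CPM in the Ctrl replicates and 150.0, 189 and 265 CPM in those of cKO. It was lower in cKO in all 3 pairs, by little, and replicate 3 was the highest library in both groups. The group means were 216 ± 49.9 and 201 ± 58.3 CPM (SD, n = 3 each). The log2 difference was -0.11 with a 95% interval from -0.29 to 0.066 with the replicate number (limma adjusted p 0.659). The mean of same-numbered pairs ranged 1.67-fold, more than the 1.07-fold between groups. With group alone the sign was not fixed, at 0.056 without Ctrl replicate 3 and 0.077 without cKO replicate 1. With the replicate number, leaving replicate 1, 2 or 3 out of both groups gave -0.087, -0.092 and -0.16. None of these passed (limma adjusted p 0.403 to 0.947). In GENCODE M21 the span of Icos also holds Gm37039, an unclassified transcript on the same strand.

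Havcr2, which encodes the inhibitory receptor TIM-3 (chromosome 11, 46454935 to 46481255, plus strand), had 101, 90 and 0 reads in Ctrl and 116, 101 and 1 in cKO. The 4 libraries of replicates 1 and 2 were between 2.40 and 4.02 CPM. Replicate 3 of Ctrl had none of 52952416 reads, which allows up to 0.0567 CPM when the limit of a count of 0 is set at 3 reads, and replicate 3 of cKO was at 0.0147 CPM. The log2 difference between groups was 0.048 with a limma adjusted p of 0.952 with the replicate number. The 95% interval ran from -0.36 to 0.45 there and from -1.93 to 2.03 with group alone.

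Levels of different genes were set side by side per kilobase of the deposited gene length. In Ctrl, Cd96 stood highest at 100.1 ± 10.7 CPM per kilobase (SD, n = 3), followed by Icos at 53.2 ± 12.3, Cd226 at 42.6 ± 2.70 and Pdcd1 at 30.4 ± 14.0. Btla followed at 9.35 ± 0.390, Tigit at 2.44 ± 0.271, Ctla4 at 0.508 ± 0.225 and Havcr2 at 0.376 ± 0.326. The Ctrl libraries of neighbours in this order overlapped for Icos and Cd226, for Cd226 and Pdcd1, and for Ctla4 and Havcr2, and were separate for the rest. In cKO, Cd96 was at 71.3 ± 9.58 and Cd226 at 61.5 ± 9.94 CPM per kilobase. With merged exon lengths of GENCODE M21 instead, Cd226 (28.5) came after Pdcd1 (30.4) and Ctla4 (0.706) after Havcr2 (0.726) in Ctrl. On that scale Btla was at 17.9 in Ctrl, and Cd226 in cKO at 41.1, so these levels depend on the gene model.

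Low values in replicates 1 and 2 need a scale of their own. The 4098 genes listed at 0 in both replicate 3 libraries had medians between 0.571 and 0.994 CPM per kilobase in the other 4 libraries. Ctla4 lay above 35.9% to 56.5% of these genes in those libraries and Havcr2 above 36.4% to 44.4%. Tigit lay above 77.7% and 84.8% of them in Ctrl and above 50.6% and 74.0% in cKO. Thus Ctla4 and Havcr2 in replicates 1 and 2 were at levels common to genes with no read in the deepest libraries, whereas Tigit and Ctla4 kept 45 reads or more in both replicate 3 libraries. The 5 other receptors lay above at least 98.1% of these genes in every one of the 4 libraries.

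**Figure D4:**
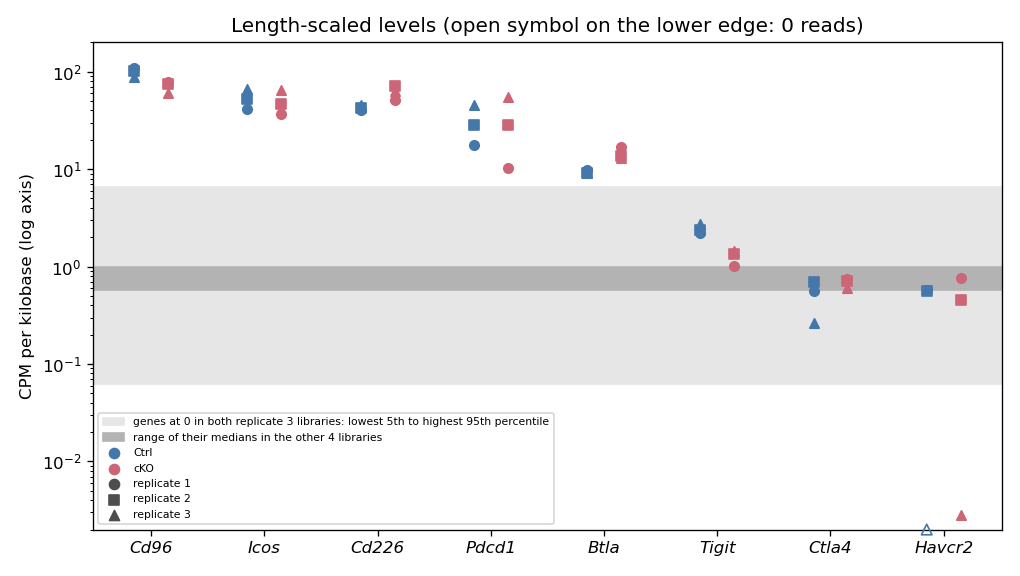
CPM per kilobase of gene length (vertical axis, log scale) of each receptor in the 6 libraries; the dark band is the range of medians and the light band the lowest 5th to highest 95th percentile, in the other 4 libraries, of the 4098 genes listed at 0 in both replicate 3 libraries. Cd96, Icos, Cd226, Pdcd1 and Btla lie above the bands and Tigit and Ctla4 within them, as does Havcr2 in replicates 1 and 2; the open symbol on the lower edge stands for 0 reads.

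Of 10 tested genes for ligands of these receptors, none passed in limma with either model, in edgeR or in DESeq2. At an unadjusted p under 0.05, limma with the replicate number gave 2 and limma with group alone 0, against 12.6% and 6.02% of all tested genes. In cKO 6 were higher and 4 lower, the groups overlapped for all 10, and the median log2 difference was 0.073. The ligand list held Pvr and Pvrl3 for the nectin receptors, Cd274 and Pdcd1lg2 for PD-1, Cd86 for CTLA-4, Icosl for ICOS, Tnfrsf14 (HVEM) for BTLA and Lgals9 for TIM-3. Pvr, the poliovirus receptor, had 80.0 ± 6.25 CPM for Ctrl and 84.1 ± 12.5 for cKO (SD, n = 3 each). Tnfrsf14 was at 4.15 ± 1.06 and 2.86 ± 1.57 CPM.

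In a wider list of inhibitory and related receptors, 2 of 12 tested genes passed with group alone, 1 in each direction, and 4 passed with the replicate number, 1 higher and 3 lower. Over all tested genes the shares were 0.663% and 2.87%. The list was chosen with earlier results of these data known, so its counts cannot be read as an excess over these shares. Cd101, an immunoglobulin-family inhibitory receptor, fell from 97.8 ± 5.88 to 47.5 ± 4.52 CPM (SD, n = 3 for this and the values that follow), at a limma adjusted p of 0.0122 with group alone. Cd72, an inhibitory co-receptor best known from B cells, rose from 8.17 ± 0.596 to 25.1 ± 5.51 CPM (limma adjusted p 0.0301 with group alone). Of the 6 fits with group alone that each left out 1 library, Cd101 passed in 2, with limma adjusted p values up to 0.0908, and Cd72 in 1, with values up to 0.176. Cd244, the SLAM-family receptor 2B4, fell from 39.5 ± 0.999 to 12.0 ± 4.59 CPM (limma adjusted p 0.00235 with the replicate number and 0.0708 without). Cd200r1, the inhibitory receptor for CD200, fell from 8.99 ± 0.295 to 2.95 ± 1.28 CPM (limma adjusted p 0.0143 with the replicate number and 0.242 without). On the log2 scale these differences were -1.03, 1.49, -1.71 and -1.40, each larger in size than that of any of the 8 receptors.

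Proteins that carry the receptors' signals gave 2 calls among 21 tested genes with the replicate number, where 2.87% of all tested genes were called. With group alone limma and edgeR called none, 3 had an unadjusted limma p under 0.05 (6.02% of all tested genes had), and DESeq2 called 3. With the replicate number, 8 of the 21 had an unadjusted limma p under 0.05, against 12.6% of all tested genes. Fyn, a Src-family kinase, rose from 541 ± 40.8 to 726 ± 40.2 CPM (limma adjusted p 0.0144). Ptpn6, which encodes the phosphatase SHP-1 that binds inhibitory tyrosine motifs, fell from 1597 ± 110 to 1193 ± 44.6 CPM (limma adjusted p 0.0205). With the replicate number, the Ptpn6 call was lost under TMM scaling (limma adjusted p 0.0530), in edgeR (adjusted p 0.0635) and without replicate 1 (limma adjusted p 0.120). The Fyn call was lost without replicate 1 (limma adjusted p 0.0830) and without replicate 2 (limma adjusted p 0.127). Without the replicate number the limma adjusted p was 0.173 for Fyn and 0.133 for Ptpn6. Transcription factors known to control checkpoint receptors gave 1 call among 21 with the replicate number, near the 2.87% of all tested genes and the 4.62% of those whose mean reached 50 CPM. With group alone limma and edgeR again called none, 3 had an unadjusted limma p under 0.05, and DESeq2 called 2. An unadjusted limma p under 0.05 with the replicate number was seen for 10 of these 21, again against 12.6%. That share covers all tested genes, low ones included, and none was computed for genes at the level of these lists. Both lists were also chosen with earlier results of these data known. Neither the 8 nor the 10 can therefore be read as an excess. Tcf7, which encodes TCF-1, rose from 272 ± 35.3 to 376 ± 12.1 CPM (limma adjusted p 0.0239 with the replicate number and 0.227 without). With the replicate number, the Tcf7 call was lost without replicate 2 (limma adjusted p 0.104). Tox, an exhaustion-associated factor, was at 56.1 ± 9.28 and 44.1 ± 11.5 CPM (limma adjusted p 0.162 with the replicate number). The median log2 differences of the 3 lists were 0.027, 0.053 and 0.062.

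**Figure D5:**
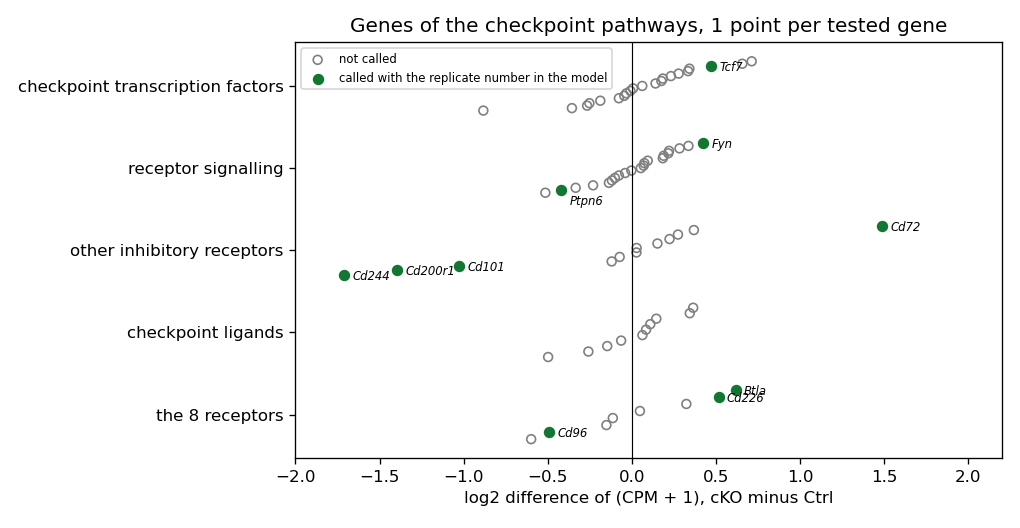
Log2 difference of (CPM + 1) between cKO and Ctrl (horizontal axis), 1 point per tested gene, for the 8 receptors and 4 lists of related genes; filled points passed the limma threshold with the replicate number in the model. Calls stand on both sides of 0 among the receptors and the other inhibitory receptors, and none is among the ligands.

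For each called receptor, the 3 genes with the nearest pattern were sought among 10140 genes whose mean reached 5 CPM, by Euclidean distance of 6 centred log2 values. Cd4, the co-receptor, lay nearest to Cd226 at a distance of 0.098, at 112, 122 and 129 CPM in Ctrl against 144, 194 and 189 CPM in cKO. Gimap6 and Gm3345 came next. Il18rap, a subunit of the interleukin-18 receptor, lay nearest to Btla at 0.16, followed by H2-Q7 and Lmna. Pacsin2 lay nearest to Cd96 at 0.14, followed by Tctn3 and Fam3c. These likenesses rest on 6 libraries.

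The receptors' chromosomal neighbours were examined within 250 kilobases. None of the 6 tested neighbours of Btla, the 3 of Cd96, the 3 of Tigit or the 2 of Cd226 passed in limma with the replicate number. None of them showed groups that did not overlap. Over all tested genes 2.87% passed and 11.0% had separate groups, so none among so few genes says little about these loci. Atg3, just upstream of Btla, was at 74.3 ± 0.730 and 75.1 ± 10.9 CPM (SD, n = 3 each). Cd28, which shares the chromosome 1 cluster with Ctla4 and Icos, had 299 ± 2.40 CPM for Ctrl and 372 ± 13.9 for cKO, with groups that did not overlap and a limma adjusted p of 0.0704 with the replicate number.

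Markers of other cells that express these receptors were read in the same libraries. The 6 markers of double-positive thymocytes with a row summed to between 177 and 192 CPM in Ctrl and between 209 and 252 CPM in cKO. Cd4 and Cd1d1 made up most of that and went opposite ways. Cd4 rose with the replicate number in the model (limma adjusted p 0.0169). Cd1d1 was at 54.2 ± 2.09 CPM in Ctrl against 43.6 ± 9.55 CPM in cKO, with separate groups (limma adjusted p 0.376 with the replicate number). Rag1 was at 0.852 ± 0.497 CPM in Ctrl against 1.91 ± 0.863 CPM in cKO, with separate groups, and Cd8a at 1.32 ± 0.958 against 2.98 ± 0.814 CPM; neither passed (limma adjusted p 0.1498 and 0.050026 with the replicate number). Dntt was at or below 4.51 CPM in every library. The natural killer cell list, with 6 genes, summed to between 775 and 1483 CPM in Ctrl and between 1594 and 1804 CPM in cKO. In every library Ncr1 was at or below 2.28 CPM and Eomes at or below 1.39 CPM. Klrb1c and Klrk1 made up most of these sums. Klrb1c was also on the list of T cell and iNKT1 markers, so the sums do not measure natural killer cells alone. The lowest Ctrl sum came from replicate 2, where Klrb1c was at 180 CPM against 566 and 703 CPM in the other Ctrl libraries. Gzma went the other way, at 188 ± 34.8 CPM in Ctrl against 75.2 ± 52.8 CPM in cKO, with separate groups and a limma adjusted p of 0.224 with the replicate number. The epithelial and stromal list of 5 genes was at 33.8 to 41.1 CPM in Ctrl and 58.1 to 74.5 CPM in cKO. The higher sums came from 1 gene, Pecam1, the only member with separate groups. Pecam1 rose from 26.7 ± 3.80 CPM to 57.0 ± 8.09 CPM, with a limma adjusted p of 0.0423 with group alone. Groups overlapped for Epcam (mean CPM 6.52 for Ctrl, 6.58 for cKO), Col1a1 (1.33, 0.903), Col3a1 (2.17, 2.32) and Pdgfra (1.22, 0.895). Col3a1 and Pdgfra were at 0 in both replicate 3 libraries. The part of these lists in the differences of Btla, Cd226 and Cd96 was not tested. Sums of the regulatory T cell, iNKT2, iNKT17, follicular-type iNKT, B cell and myeloid lists overlapped between the groups, while single genes of them did not. In the follicular and anergic-type iNKT list, 5 of 6 genes had a negative log2 difference. Those of Bcl6 (-0.0090) and Zbtb16 (-0.00068) were negligible. Groups were separate for 3 genes, all lower in cKO, against 7.10% of all tested genes. Of these, Nt5e (CD73) fell from 179 ± 22.8 to 49.2 ± 2.85 CPM (limma adjusted p 0.00215 with group alone), and Nrp1 fell from 35.3 ± 11.3 to 11.4 ± 3.66 CPM (limma adjusted p 0.000641 with the replicate number and 0.148 without). In the iNKT2 list, Il4 fell from 35.5 ± 10.01 to 18.6 ± 3.65 CPM and Plac8 rose from 8.32 ± 3.81 to 23.0 ± 14.4 CPM, at limma adjusted p values of 0.00806 and 0.00613 with the replicate number and of 0.421 and 0.753 without. In the regulatory T cell list of 5 genes, Il2ra rose from 8.64 ± 0.644 to 37.7 ± 1.47 CPM (limma adjusted p 0.00215 with group alone) and Capg fell from 712 ± 51.9 to 379 ± 25.7 CPM (limma adjusted p 0.0128). Folr4, a folate receptor family gene on the same list, was highest in replicate 3 and lowest in replicate 1 of both groups, as Pdcd1 and Icos were; it was singled out after its values were seen.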

How the data were processed

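The authors deposited 1 table with CPM per library, computed from read counts, and with their own log2 fold change, p-value and adjusted p-value, likelihood-ratio score and marks, per the file headers. Trimmomatic 0.33, STAR 2.5.2, HTSeq 0.6.1, edgeR and build mm10 are named in the submitters' processing notes; their settings and the annotation release were not given in the sources used here, and strand-specific counting was not stated. Columns named WT and KO were taken as Ctrl and cKO, the only groups. CPM values in each library were whole multiples of 1 read (100% within 0.01 of a whole number), so read counts were recovered from the deposited values; the recovered counts were used in alternatives.

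The main test was limma 3.58.1 in R 4.3.3 on log2(CPM + 1), for 15691 genes whose mean reached 1 CPM, with group as the term, a mean-variance trend and robust moderation. P-values were adjusted by the Benjamini-Hochberg method over all tested genes, at 0.05. The replicate number was also added as a block, and that model is given beside each result it changes. Deviations of same-numbered libraries from their group means correlated at 0.855, 0.687 and 0.924 over 15691 genes. These values largely reflect replicate 3, which stood apart in both groups. It correlated at -0.886 to -0.698 with replicates 1 and 2 of the other group. Replicates 1 and 2 were not clearly told apart, since Ctrl replicate 2 correlated more with cKO replicate 1, at 0.718. The correlations therefore cannot decide whether same-numbered libraries belong together, and the calls made with the block depend on that. Alternatives were other pseudocounts, filters and TMM scaling, edgeR 4.0.16 and DESeq2 1.42.0 on recovered reads, replicates 1 and 2 alone, and leaving out each library. Fits were also run on simulated data, in which same-numbered libraries of both groups shared their means apart from the set changes. That setting assumes the pairing, so it cannot decide whether the block is right. Genes were named by rule: all receptors, up to 6 called genes of each related list, and the 3 nearest patterns of each called receptor; others were named after their values were seen. Members and lists were chosen with earlier results of these data known. List symbols were matched in the table or through GENCODE M21 gene identifiers, and genes without a row were not analysed here. Lengths are the deposited gene widths.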

Additional observations from a re-analysis of the deposited data

How the results depend on the processing

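The log2 differences of Btla, Cd226, Cd96, Tigit and Ctla4 kept their direction in every fit that gave them a value, while the calls of the first 3 changed with the tool, the replicate block and the libraries used. The number of receptors called was 0 in limma and edgeR with group alone over all libraries, and in each fit that left out 1 library. It was 3 with the replicate block, under TMM scaling with the block, under edgeR with the block and under DESeq2, and 2 in replicates 1 and 2 alone. DESeq2 and the fit of replicates 1 and 2 alone also held group as the only term. With the block and without replicate 1, 2 or 3 it was 1, 2 and 3; these last fits were added after the data had been seen. Btla passed at 0.62 with the block, 0.66 (TMM with the block), 0.67 (edgeR with the block), 0.68 (DESeq2) and 0.68 (replicates 1 and 2). Cd96 passed in the same fits at -0.49, -0.45, -0.45, -0.44 and -0.46, and Cd226 in the first 4 at 0.52, 0.56, 0.56 and 0.58. With the block and a pair left out, Btla passed at 0.64 (without replicate 2) and 0.68 (without replicate 3), Cd96 at -0.51 and -0.46 in the same fits, and Cd226 at 0.61 (without replicate 1) and 0.54 (without replicate 3). Leaving out 1 library gave 0.50 to 0.69 for Btla, 0.41 to 0.65 for Cd226 and -0.57 to -0.38 for Cd96.

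Pdcd1 reversed to 0.12 under edgeR and under DESeq2, both without the block, and ran from -0.70 to 0.48 when 1 library was left out. Over those fits Havcr2 ran from -0.61 to 0.72 and Icos from -0.33 to 0.077. With the block and without replicate 1, Pdcd1 was at 0.14 and Havcr2 at -0.092. Genes called over the whole table numbered 104 with group alone, 451 with the block, 513 (TMM with the block), 469 (edgeR with the block), 41 (edgeR), 552 (DESeq2) and 296 (replicates 1 and 2), from 14 to 97 when 1 library was left out, and 345, 426 and 897 with the block and without replicate 1, 2 or 3. Calls among the 4 related lists numbered 2 with group alone, 7 with the block, 7 (TMM with the block), 6 (edgeR with the block), 9 (DESeq2) and 6 (replicates 1 and 2), from 0 to 4 when 1 library was left out, and 5, 5 and 17 with the block and without replicate 1, 2 or 3. The causes were not tested. With a minimum mean of 5 CPM, Ctla4, Havcr2 and Tigit had no value, and DESeq2 gave no adjusted p for Ctla4 and Tigit. Tigit, Ctla4 and Havcr2 had 140 reads or fewer in each library, and the low values of Havcr2 (0 and 1 reads) were in the 2 deepest libraries.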
